A study of Homo sapiens with 11 samples.

Results

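The zinc finger genes of human chromosome 19 were followed in SK-MEL103, an established melanoma cell line. The set held every protein-coding gene of chromosome 19 whose symbol is ZNF followed by digits, with or without a final letter, in the GENCODE annotation. These were 246 of the 61566 genes of the annotation that the deposited transcripts belonged to. The rule itself used no expression value, but the set was chosen with earlier results of these data known. RNA was sequenced from cells kept for 6 days with the solvent DMSO (n = 4), with 0.25 µM etoposide (n = 4) or with 0.5 µM tozasertib (n = 3, replicates 1, 2 and 4), and the drugs were given again with new medium on day 3. Etoposide traps topoisomerase II on DNA and leaves breaks, and tozasertib inhibits the Aurora kinases of mitosis. The labels call the DMSO cells non-senescent and the cells under either drug senescent, that is, in lasting arrest of division. All samples came from the same parental line, and nothing in the sources says that replicates were separate cultures, so p-values speak of the scatter among these libraries, in part perhaps technical.

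ZNF proteins bind DNA through rows of C2H2 zinc fingers, small folds that hold a zinc ion and each contact a few bases. Most ZNF proteins of chromosome 19 also carry a KRAB domain, which recruits the scaffold protein TRIM28 and, through it, the histone methyltransferase SETDB1 and heterochromatin protein 1. The best known targets of this machinery are transposons, and the genes themselves arose by repeated local duplication, so that neighbours are often close relatives.

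The marks of arrest were present in the drug-treated cells. MKI67, a marker of dividing cells, averaged 215.1 ± 30.3 CPM (reads of a gene scaled to library depth, SD, n = 4) with DMSO, 46.1 ± 8.83 with etoposide and 28.6 ± 7.57 with tozasertib, while CDKN1A, an inhibitor of cell cycle kinases, averaged 458.0 ± 34.2, 1406 ± 32.8 and 1498 ± 14.5 CPM. Of 8 melanocytic markers, 4 had enough reads to be tested. The lineage factor SOX10 averaged 513.5 CPM with DMSO, 322.7 with etoposide and 379.1 with tozasertib and was called lower with both drugs. The other tested markers went the other way, at much lower levels. MITF averaged 7.68, 9.44 and 9.25 CPM and S100B 1.17, 2.18 and 3.31 CPM, both called higher with both drugs. PMEL averaged 0.325, 0.404 and 3.85 CPM and was called higher with tozasertib only. The pigment cell antigen MLANA had no read in any sample. The summed melanocytic level ran from 490.4 to 551.0 CPM with DMSO, from 329.1 to 348.4 with etoposide and from 392.2 to 399.1 with tozasertib. Nearly all of it came from SOX10, so its fall is that of SOX10 and not of the marker list. The summed level of 6 fibroblast markers ran from 24.7 to 29.8 CPM with DMSO, from 136.9 to 153.9 with etoposide and from 118.5 to 123.2 with tozasertib, mostly from LUM and COL1A1, and the part of these shifts in the values below was not tested. In bulk RNA, fewer cells with a transcript and less of it per cell cannot be told apart.

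The 246 genes fell into 20 groups when neighbours less than 500 kb apart were joined, and 8 of these groups, named A to H here in order along the chromosome, had at least 10 members and held 222 of the genes. The translated coding sequences of the 246 genes carried between 1 and 36 finger patterns, with a median of 12. The median was 9 for the 231 ZNF genes of other chromosomes that were tested for expression. A KRAB pattern was found within the first 250 amino acids of the protein in 208 of the 246 genes. The other 38 lacked a match, which does not exclude a divergent KRAB domain. Cluster C was the longest, with 37 genes between ZNF101 and ZNF254 at chr19:19668796-24129968 (GRCh38), in the stretch of the short arm next to the centromere that is known for its growth in primates. Cluster F held 39 genes, from ZNF175 to ZNF331 at chr19:51571283-53580269, and cluster H held 43.

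The stretches of 250 bases upstream of the gene starts are shown for 3 genes that rose with both drugs and 3 genes of cluster C that fell with both, since the promoters of cluster C shared letters that those of most other clusters lacked. They are RefSeq sequences of build GRCh38.p14, read 5′ to 3′ in the direction of the gene. The capitals mark CCAATCAG, an extended CCAAT box, searched on both strands. The CCAAT box is a common promoter element bound by the factor NF-Y.

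The promoters of the 3 genes that rose lay at chr19:52397599-52397848 (plus strand), chr19:58002821-58003070 (minus strand) and chr19:58381031-58381280 (minus strand).
ZNF528: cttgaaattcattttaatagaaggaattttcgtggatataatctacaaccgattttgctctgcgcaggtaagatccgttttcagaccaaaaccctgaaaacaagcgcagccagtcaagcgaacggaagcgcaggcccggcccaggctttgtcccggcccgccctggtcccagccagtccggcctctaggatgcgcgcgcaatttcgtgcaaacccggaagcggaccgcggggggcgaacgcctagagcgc
ZNF606: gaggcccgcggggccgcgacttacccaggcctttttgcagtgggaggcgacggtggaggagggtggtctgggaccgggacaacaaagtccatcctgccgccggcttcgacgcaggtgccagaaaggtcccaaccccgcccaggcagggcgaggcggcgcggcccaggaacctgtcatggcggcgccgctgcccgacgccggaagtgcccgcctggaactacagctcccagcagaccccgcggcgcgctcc
ZNF837: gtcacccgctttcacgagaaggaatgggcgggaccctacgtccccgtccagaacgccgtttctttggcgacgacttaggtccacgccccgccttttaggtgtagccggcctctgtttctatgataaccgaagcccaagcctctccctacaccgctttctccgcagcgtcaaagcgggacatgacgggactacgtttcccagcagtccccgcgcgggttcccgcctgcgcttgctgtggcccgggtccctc

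The promoters of the 3 genes of cluster C that fell lay at chr19:22634074-22634323 (plus strand), chr19:23250395-23250644 (minus strand) and chr19:21767580-21767829 (minus strand).
ZNF492: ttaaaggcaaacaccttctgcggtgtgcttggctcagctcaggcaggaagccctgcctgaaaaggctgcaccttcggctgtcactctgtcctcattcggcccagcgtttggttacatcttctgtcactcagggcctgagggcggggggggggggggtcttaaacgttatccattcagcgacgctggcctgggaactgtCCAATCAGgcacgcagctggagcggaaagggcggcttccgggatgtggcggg
ZNF724: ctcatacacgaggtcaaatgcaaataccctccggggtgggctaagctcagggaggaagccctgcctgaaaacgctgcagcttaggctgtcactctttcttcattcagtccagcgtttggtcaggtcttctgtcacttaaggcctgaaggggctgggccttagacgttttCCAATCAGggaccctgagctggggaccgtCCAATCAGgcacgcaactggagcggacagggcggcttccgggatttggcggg
ZNF100: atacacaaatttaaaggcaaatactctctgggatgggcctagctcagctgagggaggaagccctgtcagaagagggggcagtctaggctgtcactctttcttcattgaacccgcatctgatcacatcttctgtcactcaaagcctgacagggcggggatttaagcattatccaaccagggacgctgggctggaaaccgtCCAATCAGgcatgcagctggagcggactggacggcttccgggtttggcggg

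The upstream sequences of ZNF492, ZNF724 and ZNF100 were alike, with 77.6% to 80.8% identical bases between pairs after alignment. Pairs that involved ZNF528, ZNF606 or ZNF837 had 54.8% to 61.6%. Over all 406 pairs within cluster C the median identity was 79.2%, against 58.8% for pairs from different clusters. CCAATCAG was found in 29 of 29 promoters of cluster C and in 21 of 24 of cluster B, in 1 of 32 of cluster F, and in 0 of the promoters of clusters A, D, E, G and H. The share was 25.9% over the 216 members with a RefSeq promoter and 3.98% over all 27305 RefSeq promoters of that length. The shorter CCAAT, which every CCAATCAG contains, was found in 50.9% and 33% of them. CCAATCAG stood in 10.8% of 83 promoters of members that rose with etoposide and 48% of 25 of members that fell, and in 13.2% of 106 and 52.6% of 19 with tozasertib. Among members not called it stood in 31% of 87 with etoposide and 34.3% of 70 with tozasertib. Since every cluster C promoter held it, its presence says nothing of direction there. Outside cluster C it stood in 3 of 77 promoters of members that rose with etoposide, 2 of 15 of members that fell and 18 of 78 of members not called. Members had a median of 16 CpG dinucleotides in this stretch and cluster C had 8, against 11 for all promoters, and the GC box GGGCGG, searched on both strands, was found in 64.8% of members and 42.3% of all promoters.

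Of the 246 genes, 220 had enough reads to be tested and 26 had not, 9 of them in cluster C. The filter asked for at least 3 samples at 0.318 CPM or more, and 8 tested members had fewer than 3 such samples under DMSO, so that they were tested only because of the treated samples. ZNF536, ZNF610, ZNF880 and ZNF540 of these were called higher with both drugs, and the others were not called. None of the 26 untested genes averaged above 0.316 CPM in a group, and ZNF728 and ZNF135 had no read at all. Members took 79160 to 206588 reads of a library, whose totals ran from 27882689 to 56534763. The tested members had a median level of 9.39 CPM, against 17.2 CPM for all genes tested. Close relatives share reads, which the authors' quantification divides between them as fractions. The reads of a member summed to a whole number (within 0.01) in at least 6 of 11 samples for 52.3% of tested members and 53.6% of all genes tested. A sum that is not whole does not tell what share of the reads was divided. Members also had fewer reads than other genes, so these shares do not compare how much was divided.

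By length, the most abundant of the 5 members with the highest CPM was ZNF580, a short protein with 3 finger patterns, at a mean of 104 TPM (the authors' depth-scaled abundance per transcript length) with DMSO. ZNF146, whose protein is made almost wholly of zinc fingers, had 79.8 TPM, ZNF561 had 30.8, ZNF865 had 24.2 and ZNF587 had 20.9. Of these 5 the 2 KRAB genes moved. ZNF561 rose from 51.2 ± 5.35 CPM with DMSO to 79.1 ± 4.06 with etoposide and 89.4 ± 1.53 with tozasertib. ZNF587 stood at 60.8 ± 3.4, 69.1 ± 6.74 and 78.7 ± 5.15 CPM and was called higher with both drugs, by 0.19 ± 0.07 (SE) and 0.37 ± 0.08 on the log2 scale (edgeR's quasi-likelihood test, adjusted p = 0.0477 and 0.00132 after the Benjamini-Hochberg method, BH). The call with etoposide was lost when any of 7 libraries was left out (DMSO 1, 3 or 4, etoposide 1 or 2, tozasertib 1 or 2), at values of 0.12 to 0.19. ZNF146, ZNF580 and ZNF865, which carried no KRAB pattern, passed the test with neither drug, although ZNF146 was called higher with tozasertib when scaled by library size alone (0.21).

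With either drug, many more members rose than fell. Summed over the 246 genes, the level was 2775, 2808, 2824 and 2865 CPM in the 4 DMSO samples. It was 3329, 3090, 3155 and 3184 CPM with etoposide and 3526, 3430 and 3441 CPM with tozasertib. The groups did not overlap, and their means stood at 1.13 times (etoposide) and 1.23 times (tozasertib) the DMSO mean.

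The rise of this sum lay in the KRAB genes. Their summed level was 1790 ± 106 CPM (SD, n = 4) with DMSO, 2193 ± 90.2 (n = 4) with etoposide and 2434 ± 52.1 (n = 3) with tozasertib, again without overlap. The members without a KRAB pattern summed to 1028 ± 69.9, 997 ± 16.1 and 1032 ± 1.42 CPM, and all samples under either drug lay within the DMSO range of 943.4 to 1114 CPM. DMSO replicate 1 had the lowest KRAB sum of its group, 1661 CPM, and DMSO replicate 4 the highest, 1921 CPM.

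**Figure D1:**
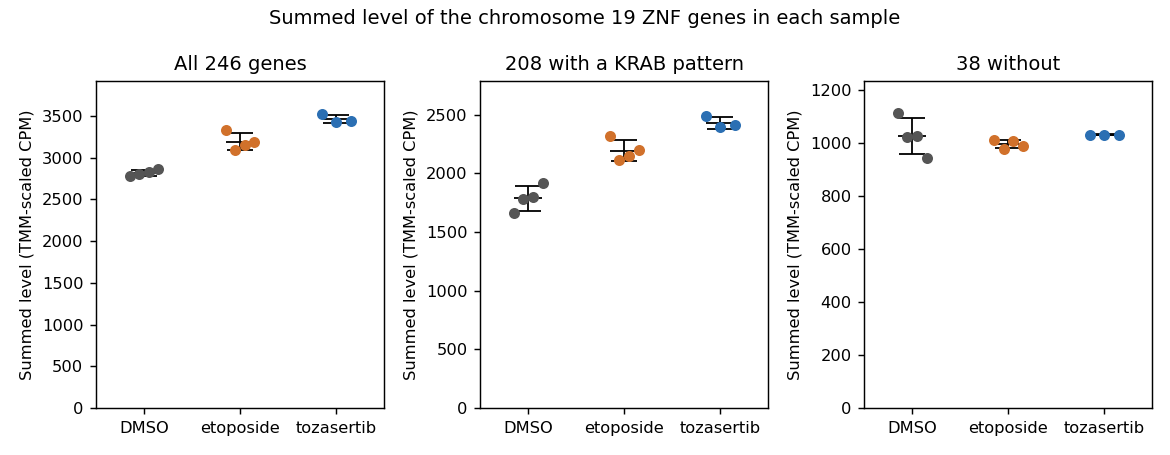
Summed level in TMM-scaled CPM of all 246 genes, of the 208 with a KRAB pattern and of the 38 without, with 1 point per sample and mean ± SD in black. The KRAB sums of the drug groups lie above every DMSO sample, while the sums of the genes without a KRAB pattern overlap.

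Etoposide against DMSO compares cells labelled senescent under that drug with cells labelled non-senescent. Of the 220 tested members, 91 were called higher and 27 lower (adjusted p under 0.05), where 27.7% and 30.7% of all 17039 genes tested were called. As shares of the members these were 41.4% and 12.3%. The median log2 fold change was 0.20 over members and -0.01 over all genes tested. The changes were mostly small, with 8 members higher and 4 lower by at least 2-fold, against 10.2% and 7.62% of all genes. The groups did not overlap for 78 members that were higher and 21 that were lower (24.2% and 27% of all genes).

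Tozasertib against DMSO makes the same comparison for cells labelled senescent under tozasertib, with the same DMSO samples as controls. With this drug 120 members were called higher and 20 lower, 54.5% and 9.09% of them, where 29.9% and 29.4% of all genes were called. The median log2 fold change was 0.37 over members and 0.02 over all genes. By at least 2-fold, 21 members rose and 4 fell (12.2% and 7.26% of all genes), and the groups did not overlap for 122 higher and 19 lower members (30.4% and 29.4%).

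ZNF genes elsewhere and other genes of the chromosome gave other counts. Of all genes tested, 27.7% were called higher and 30.7% lower with etoposide, and 29.9% and 29.4% with tozasertib. Of the 231 tested ZNF genes of other chromosomes, 49 were called higher and 54 lower with etoposide, and 73 and 29 with tozasertib. Of 766 other protein-coding genes of chromosome 19, 195 were called higher and 283 lower with etoposide, and 200 and 292 with tozasertib, with medians of -0.10 and -0.13. KRAB genes were 186 of the 220 tested members, and a larger share of them rose than of the others. Of these 186, 84 (45.2%) rose and 16 (8.6%) fell with etoposide, 111 (59.7%) and 9 (4.84%) with tozasertib. Of 34 without a KRAB pattern 7 (20.6%) rose and 11 (32.4%) fell with etoposide, 9 (26.5%) and 11 (32.4%) with tozasertib. These latter shares were not far from those of all genes. KRAB genes of other chromosomes, 90 in number, stood in between in the share that rose. With etoposide 22 (24.4%) were higher and 12 (13.3%) lower, both below the shares of all genes. With tozasertib 37 (41.1%) were higher and 5 (5.56%) lower.

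**Figure D2:**
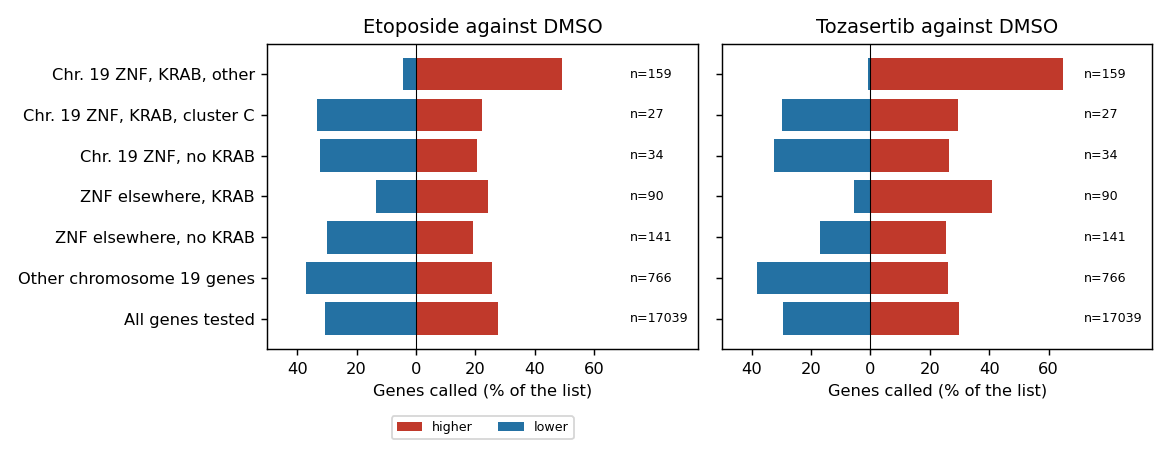
Share of each list called higher (red, to the right of 0) or lower (blue, to the left) in percent, for each drug against the same DMSO samples, with the number of tested genes at the right of each bar. KRAB members outside cluster C have the largest red share of the lists drawn, 49.1% with etoposide and 64.8% with tozasertib. Cluster C, where the largest falls lay, was set apart with the values known. Over all KRAB members the red shares were 45.2% and 59.7%.

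The counts by cluster are to be read against the shares of all genes called, 27.7% higher and 30.7% lower with etoposide and 29.9% and 29.4% with tozasertib, and differences between clusters were not tested. In cluster F 20 of 33 tested genes rose and 2 fell with etoposide, and 26 rose and 0 fell with tozasertib, with median log2 fold changes of 0.44 and 0.67. As shares these were 60.6% and 6.06%, then 78.8% and 0%. Cluster H had 23 higher and 1 lower of 40 with etoposide, 28 and 0 with tozasertib, and cluster D had 13 and 0 of 26, then 15 and 0. Clusters A and E leaned the same way, with 6 higher and 2 lower of 12 and 10 higher and 2 lower of 23 for etoposide. Cluster B had 4 higher and 3 lower of 23 with etoposide, both below the shares of all genes, a median of 0.02, and 9 higher and 2 lower with tozasertib. In cluster G, where 6 of 16 genes carried a KRAB pattern, 4 of 14 tested genes rose and 3 fell with etoposide and 3 rose and 4 fell with tozasertib, close to the shares of all genes.

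In cluster C 35 of the 37 genes carried a KRAB pattern. Of its 28 tested genes 6 rose and 10 fell with etoposide (21.4% and 35.7%), and 8 rose and 9 fell with tozasertib (28.6% and 32.1%). These shares lay near those over all genes, and the medians were 0.06 with either drug. All 4 members that fell by at least 2-fold with etoposide lay here. Outside this cluster, 78 of 159 tested KRAB members rose and 7 fell with etoposide, and 103 rose with tozasertib while 1 fell, ZNF823. This split was made with the values known. Genes that rose and genes that fell lay side by side, as where ZNF724, which fell, neighbours ZNF91, which rose. The summed level of cluster C was 104 ± 9.44 CPM with DMSO, 100.2 ± 5.36 with etoposide and 112.9 ± 3.25 with tozasertib. Both drug groups overlapped the DMSO samples but not each other (92.7 to 105.4 CPM with etoposide, 110.0 to 116.4 with tozasertib).

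**Figure D3:**
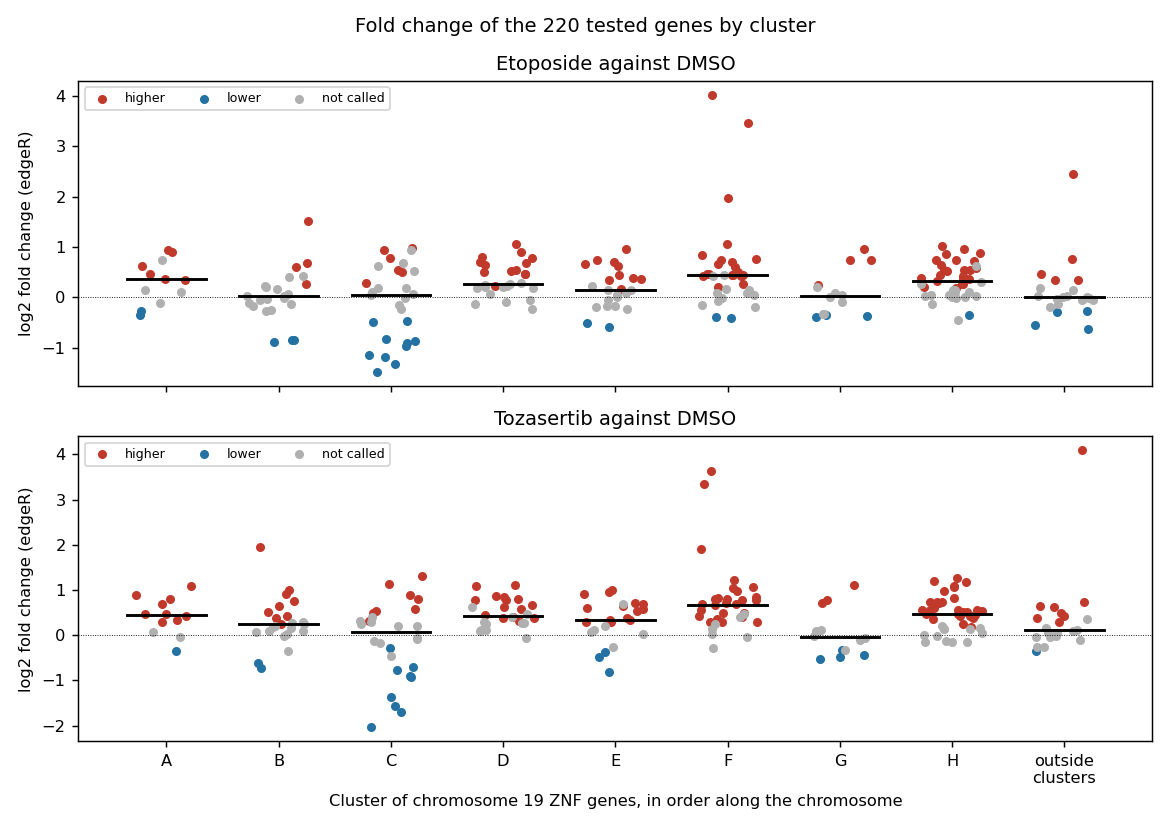
Log2 fold change of each tested gene by cluster A to H and for genes outside clusters, for each drug against DMSO, with genes called higher in red, called lower in blue, not called in grey, and the median as a black line. The medians are highest in cluster F (0.44 and 0.67), and the called points below -1 all lie in cluster C.

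Among the largest rises were genes of cluster F. ZNF610 (chr19:52336243-52367778) had 0.103, 0.0355, 0.0622 and 0.269 CPM in the DMSO samples, 14 reads in all. It had 0.976, 1.26, 1.29 and 1.78 CPM with etoposide and 1.30, 0.839 and 1.52 with tozasertib. The gene was thus close to silent with DMSO and stood near 1 CPM with either drug (log2 fold change 3.45 ± 0.44 and 3.34 ± 0.46, edgeR). ZNF610 passed the read filter only through the treated samples, where it is high. Neither its call nor its lack of overlap therefore counts as separate support. Without DMSO replicate 4 the log2 fold changes were 4.22 and 4.13, so that the size of this rise depends on few reads.

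Its neighbour ZNF880, which was singled out after its values were seen and lies below the level at which genes were chosen, had 3 reads over the 4 DMSO samples, 64 over the etoposide samples and 43 over the tozasertib samples. On the other side of it lies ZNF528, with 4.31, 4.86, 5.10 and 5.41 CPM under DMSO, 12.1, 8.70, 9.87 and 10.4 under etoposide, and 12.9, 11.4 and 10.2 under tozasertib. For ZNF528, which had enough reads in every group, no treated sample overlapped the DMSO samples, and the log2 fold changes were 1.06 ± 0.12 and 1.23 ± 0.13 (edgeR, BH-adjusted p = 6.49e-06 and 2.96e-06).

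ZNF665 (chr19:53159213-53193386), also in cluster F and with 18 finger patterns, was the best measured of the large rises. Its level was 2.24, 2.55, 2.49 and 3.03 CPM with DMSO, 10.8, 9.73, 9.36 and 10.5 with etoposide, and 9.66, 8.63 and 10.7 with tozasertib. Every treated sample stood well above every DMSO sample, and the ranges of the drugs overlapped. The log2 fold changes were 1.97 ± 0.11 and 1.9 ± 0.12 (edgeR, BH-adjusted p = 9.56e-09 and 2e-08), from sums that were whole in 11 of 11 samples.

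ZNF536, which restrains neuronal differentiation, had the largest rise of any tested member with tozasertib. It lies outside the clusters (chr19:30224891-30713586) and lacks a KRAB pattern. It had 0.276, 0.177, 0.124 and 0.135 CPM with DMSO, 0.903, 1.42, 0.984 and 0.592 with etoposide, and 3.36, 3.46 and 2.41 with tozasertib. The 3 groups did not overlap. The log2 fold change was 2.44 ± 0.35 with etoposide and 4.09 ± 0.34 with tozasertib (edgeR), against 21 reads over the DMSO samples. ZNF536 too passed the read filter only through the treated samples, so its calls against DMSO and its lack of overlap with DMSO are no separate support.

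Other KRAB genes among the largest rises changed by about 1 to 2 on the log2 scale. ZNF606 in cluster H averaged 4.91 ± 0.685, 9.95 ± 0.720 and 11.1 ± 0.749 CPM in the DMSO, etoposide and tozasertib samples, and ZNF667 in cluster G averaged 8.72 ± 0.911, 17.0 ± 2.38 and 18.7 ± 1.24. ZNF493 of cluster C, with 2.18 ± 0.191, 4.15 ± 1.02 and 4.77 ± 0.227 CPM, ZNF846 of cluster A, with 1.51 ± 0.208, 2.88 ± 0.410 and 3.23 ± 0.196, and ZNF763 of cluster B, with 0.459 ± 0.163, 1.31 ± 0.574 and 1.77 ± 0.331, all passed the test with both drugs, although ZNF846 lost its etoposide call with counts scaled for transcript length (0.69). The log2 fold changes of these 5 genes ran from 0.93 to 1.51 with etoposide and from 1.09 to 1.96 with tozasertib. ZNF837, which has no KRAB pattern, rose by 0.96 ± 0.21 and 0.74 ± 0.22, the latter not called without tozasertib replicate 4 (0.56). ZNF404 rose by 0.95 ± 0.20 with etoposide, and by 0.68 ± 0.22 with tozasertib, where 4.80 CPM in tozasertib replicate 4 fell inside the DMSO range of 3.67 to 4.88 and the call was lost without tozasertib replicate 1 (0.55) or 2 (0.58).

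With tozasertib the 10 largest rises further took in 3 low genes. ZNF132 went from 0.742 ± 0.223 CPM with DMSO to 1.81 ± 0.280, ZNF682 from 0.415 ± 0.140 to 1.04 ± 0.0968, and ZNF497 from 0.753 ± 0.375 to 1.74 ± 0.404. ZNF497 did not pass the test with etoposide (log2 fold change 0.62 ± 0.34, edgeR, BH-adjusted p = 0.14), but did so without DMSO replicate 1 (0.96), and its call with tozasertib was lost without tozasertib replicate 2 (0.99). ZNF682, in cluster C, was called higher with etoposide too (0.97 ± 0.32), though the groups overlapped and the call was lost without DMSO replicate 2 (0.76) or etoposide replicate 3 (0.83), and with counts scaled for transcript length with either drug (0.62 and 0.82). ZNF132 rose by 0.75 ± 0.25 with etoposide, and this call was lost without DMSO replicate 1 (0.65) or 2 (0.62) or etoposide replicate 3 (0.61).

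The largest falls lay in cluster C. ZNF492 had 1.24, 1.35, 1.43 and 0.807 CPM with DMSO, 0.513, 0.614, 0.337 and 0.244 with etoposide, and 0.358, 0.489 and 0.380 with tozasertib. ZNF724 had 3.31, 5.07, 4.54 and 5.68, then 1.73, 2.42, 2.45 and 1.57, then 1.43, 2.24 and 1.79 CPM. ZNF100 had 2.41, 3.62, 4.26 and 4.30, then 1.71, 1.58, 1.74 and 1.57, then 1.72, 2.17 and 2.03 CPM. In these 3 genes, whose upstream sequences are shown above, no treated sample reached the lowest DMSO sample. Their log2 fold changes were -1.48 ± 0.31, -1.19 ± 0.21 and -1.14 ± 0.19 with etoposide (edgeR, BH-adjusted p = 0.00113, 0.000333 and 0.000168). With tozasertib they were -1.57 ± 0.34, -1.37 ± 0.23 and -0.89 ± 0.20 (edgeR, BH-adjusted p = 0.00141, 0.000231 and 0.00192). ZNF492 is the least certain of them, since its sum was whole in 1 of 11 samples and it shares reads with other genes. The same limit holds for other named genes, among them ZNF561 and ZNF763 (whole in 1 of 11 samples) and ZNF799 (0 of 11).

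ZNF726, ZNF714 and ZNF85 of cluster C fell with both drugs. ZNF726 went from 1.62 ± 0.127 CPM with DMSO to 1.03, 1.16, 0.675 and 0.453 in the etoposide samples and 0.505 ± 0.264 with tozasertib, ZNF714 from 5.98 ± 0.690 to 3.26 ± 0.363 and 3.14 ± 0.564, and ZNF85 from 4.49 ± 0.606 to 2.5 ± 0.619 and 2.61 ± 0.730. With counts scaled for transcript length, all 3 lost their call under etoposide, at log2 fold changes of -0.66, -0.49 and -0.52, and ZNF85 also under tozasertib, at -0.63. The etoposide call of ZNF726 was also lost without etoposide replicate 3 (-0.87) or 4 (-0.77). ZNF799 and ZNF823 of cluster B fell with etoposide by 0.84 on the log2 scale each. With tozasertib ZNF823 fell by 0.62, a call lost with counts scaled for transcript length (-0.50), and ZNF799 missed the threshold (log2 fold change -0.36 ± 0.15, edgeR, BH-adjusted p = 0.0502), which it passed without DMSO replicate 2 (-0.40) or etoposide replicate 1 or 2 (-0.36 each).

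Among the genes without a KRAB pattern that fell were ZNF653, a repressor that acts on the nuclear receptor NR5A1, and ZNF575. ZNF653 had 16.5, 13.6, 13.3 and 12.6 CPM with DMSO, 7.64, 9.15, 6.07 and 7.32 with etoposide, and 8.82, 7.97 and 8.65 with tozasertib. Its treated samples all lay below the lowest DMSO sample, with log2 fold changes of -0.89 ± 0.12 and -0.72 ± 0.13. ZNF575 fell from 3.38 ± 0.580 CPM to 2.36 ± 0.434 and 1.93 ± 0.175, and its call with etoposide was lost without DMSO replicate 1 (log2 fold change -0.43) or 3 (-0.46) or etoposide replicate 4 (-0.41).

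**Figure D4:**
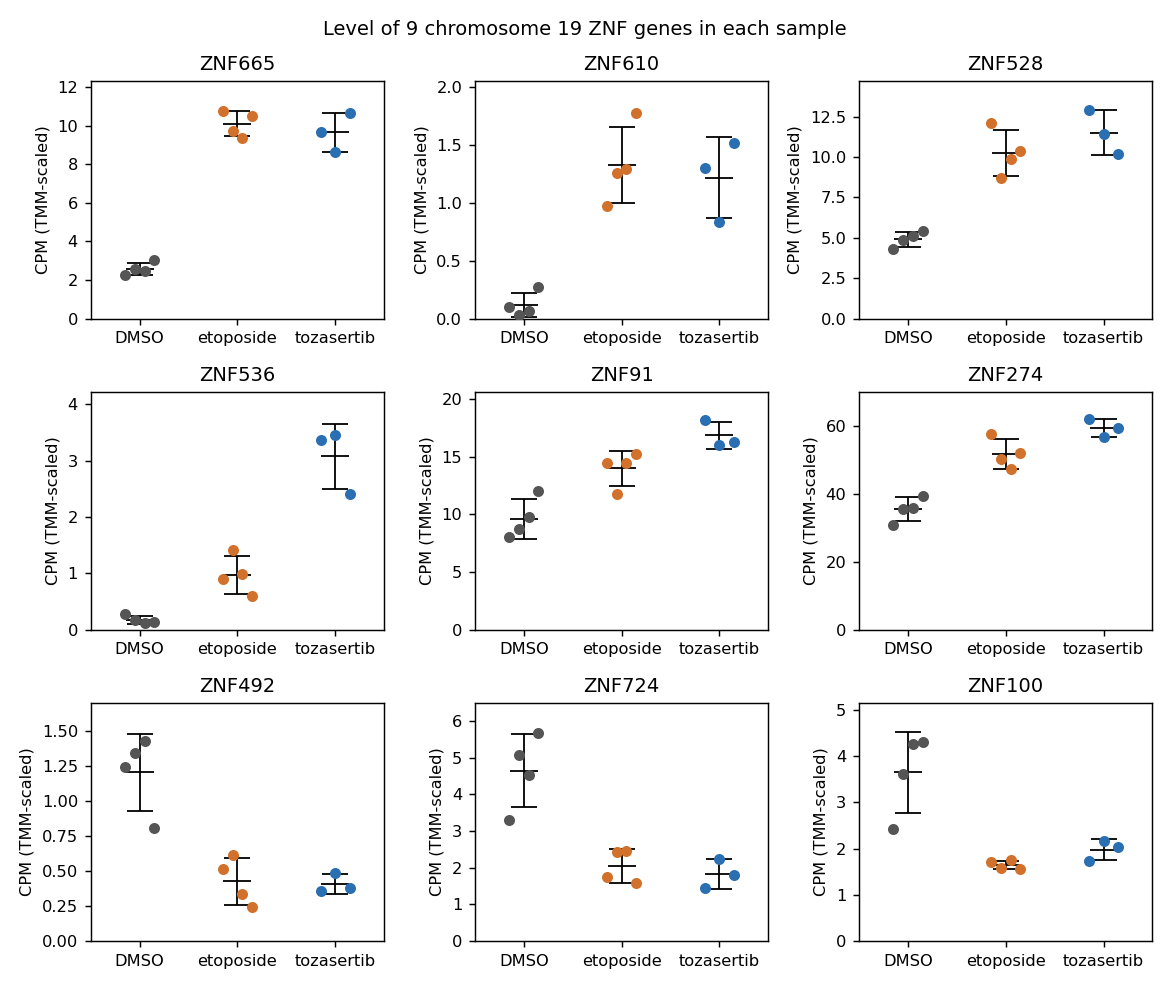
Level in TMM-scaled CPM of 9 genes in each DMSO, etoposide and tozasertib sample, with axes that start at 0, 1 point per sample and mean ± SD in black. ZNF665, ZNF610, ZNF528 and ZNF536 rise, ZNF91 and ZNF274 rise by less, and the cluster C genes ZNF492, ZNF724 and ZNF100 fall.

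The members best known for silencing particular transposons did not move as a block. ZNF91, which represses SVA elements and has 31 finger patterns, had 8.0, 8.73, 9.76 and 12 CPM with DMSO, 14.4, 11.8, 14.5 and 15.3 with etoposide, and 18.2, 16 and 16.3 with tozasertib. It rose by 0.54 ± 0.12 with etoposide, with overlap in 1 sample, and by 0.81 ± 0.13 with tozasertib (edgeR, BH-adjusted p = 0.00197 and 0.000131). ZNF93, which represses part of the LINE-1 family, had 3.52, 3.26, 3.54 and 3.53 CPM with DMSO, 2.29, 2.39, 2.73 and 2.40 with etoposide, and 2.08, 1.96 and 2.30 with tozasertib. It fell by 0.50 and 0.71 on the log2 scale (edgeR, BH-adjusted p = 0.00433 and 0.000643), without overlap. Both genes lie in cluster C.

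ZNF274, which brings SETDB1 to the 3′ ends of ZNF genes themselves, had 30.8, 35.7, 36.1 and 39.5 CPM with DMSO, 57.6, 50.3, 47.4 and 52.2 with etoposide, and 62.1, 56.8 and 59.7 with tozasertib. It was higher in every treated sample, by 0.55 ± 0.08 and 0.74 ± 0.09 (edgeR, BH-adjusted p = 6.43e-05 and 7.36e-06).

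The remaining members chosen by name did not pass the test with either drug. ZNF331, an imprinted gene, averaged 7.86 ± 1.01, 6.87 ± 2.09 and 6.45 ± 1.14 CPM. ZNF675, which binds the signalling adaptor TRAF6, averaged 6.71 ± 0.860, 7.28 ± 0.863 and 7.69 ± 0.302, and with counts scaled for transcript length it was called higher with both drugs, at log2 fold changes of 0.40 and 0.39. ZNF671 and ZNF154 are known for promoter methylation in tumours. ZNF671 averaged 3.07 ± 0.271, 3.07 ± 0.368 and 2.79 ± 0.131 CPM, whereas ZNF154 had 2, 11 and 4 reads over the groups and was not tested. ZNF350, a partner of BRCA1, had 9, 7 and 25 reads and was not tested either.

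The direct comparison of the drugs gave few calls. With tozasertib 12 members were higher than with etoposide and 1 was lower, 5.45% and 0.455% of them, where 5.67% and 5.45% of all genes were called. The share of higher members was thus that of all genes. The median log2 difference was 0.14 over members and 0.01 over all genes. It was also 0.14 over the 231 tested ZNF genes of other chromosomes, of which 15 were higher and 2 lower, so this shift was not particular to chromosome 19. At an unadjusted p under 0.05, 50 members were higher and 4 lower, 22.7% and 1.82% of them, where 12.2% and 12.1% of all genes were. The count of higher members was 34 when these 2 groups were fitted alone (10.5% of all genes then called higher), 3 with counts scaled for transcript length (3.51%), 31 without DMSO replicate 1 (9.11%), 25 without etoposide replicate 1 (6.84%), and 5 without tozasertib replicate 1 (3.25%) or without tozasertib replicate 2 (3.38%). The DMSO samples enter this comparison through the shared estimate of the spread.

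ZNF536 had the largest of these differences, 1.65 ± 0.28 (edgeR, BH-adjusted p = 0.00172), and stayed called with counts scaled for transcript length, as did ZNF615, ZNF121 and ZNF699. ZNF121 had 43.9, 36.2, 34.2 and 30.6 CPM with etoposide and 59.3, 58.1 and 46.3 with tozasertib, against 33.8 ± 1.81 with DMSO. Tozasertib samples were thus above the others. ZNF615 had 5.30, 4.53, 3.37 and 4.15 with etoposide and 6.62, 7.41 and 6.67 with tozasertib, around a DMSO mean of 5.81 ± 0.887. ZNF254 averaged 3.32 ± 0.490 and 5.46 ± 0.279, and ZNF285 averaged 3.74 ± 0.380 and 5.58 ± 0.258, and both lost the call with that scaling. ZNF254 was among the 10 largest falls from DMSO with etoposide. With single samples left out, its log2 fold change against DMSO was -1.03 to -0.81 with etoposide and -0.30 to -0.08 with tozasertib. For ZNF285 these ranges were -0.11 to 0.05 and 0.47 to 0.63. ZNF699 was the member that was lower with tozasertib, with 9.27, 10.8, 13.0 and 11.8 CPM under etoposide and 7.17, 7.31 and 8.24 under tozasertib (difference -0.57 ± 0.13, edgeR, BH-adjusted p = 0.0124). From 6.01 ± 0.735 CPM with DMSO it was called higher with both drugs, by 0.90 ± 0.12 with etoposide and 0.33 ± 0.13 with tozasertib. The call with tozasertib against DMSO was lost when any of 7 libraries was left out. Leaving out tozasertib replicate 1 lost the calls of ZNF254 (0.69), ZNF285 (0.54) and ZNF699 (-0.53), and leaving out tozasertib replicate 2 lost those of ZNF615 (0.61), ZNF285 (0.58) and ZNF699 (-0.55). Against DMSO, ZNF615 was called lower with etoposide (-0.42 ± 0.15), and the call was lost without DMSO replicate 2 (-0.41) or 4 (-0.33) or etoposide replicate 3 (-0.31) or 4 (-0.40).

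Features of the proteins and transcripts followed the fold changes weakly. Across the 220 tested genes, which share libraries and are not independent, Spearman's rho between the number of finger patterns and the log2 fold change was 0.10 with etoposide and 0.12 with tozasertib. With effective transcript length it was -0.08 and -0.03, and with the mean level -0.04 and -0.04. Members with 15 or more finger patterns had 31 higher and 5 lower of 69 with etoposide, and those with 8 or fewer had 14 higher and 6 lower of 41.

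A list of 40 chromatin genes took in the machinery that the KRAB proteins work through, genes of DNA methylation, and enzymes that remove histone methylation. All 40 were tested, and 4 were called higher and 21 lower with etoposide, 10% and 52.5% of them, where 27.7% and 30.7% of all genes were called. With tozasertib 4 were higher and 23 lower, 10% and 57.5%, where 29.9% and 29.4% of all genes were called. The demethylases KDM4A and KDM4B, which take methyl groups off histone H3 lysine 9, were among the 4 higher with etoposide, beside SETDB1 and DNMT3B. TRIM28, the scaffold itself, had 670, 573, 589 and 540 CPM with DMSO, 393, 407, 419 and 395 with etoposide, and 367, 382 and 378 with tozasertib. It was lower in every treated sample, by log2 fold changes of -0.56 ± 0.06 and -0.66 ± 0.07 (edgeR, BH-adjusted p = 6.33e-06 and 3.29e-06). Its relative TRIM24 changed by -1.08 ± 0.07 and -1.07 ± 0.08.

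SETDB1, the methyltransferase that TRIM28 recruits, was higher, with 27.4, 30.7, 30.8 and 30.4 CPM under DMSO, 37.9, 36.1, 33.5 and 33.2 under etoposide, and 38.2, 42.3 and 37.9 under tozasertib. No treated sample overlapped the DMSO samples, while the 2 drug groups overlapped each other (log2 fold change against DMSO 0.24 ± 0.07 and 0.40 ± 0.07, edgeR, BH-adjusted p = 0.00788 and 0.000319). SUV39H1, another methyltransferase of histone H3 lysine 9, was lower, with log2 fold changes of -1.38 ± 0.09 and -1.59 ± 0.10. Of the 10 genes of the NuRD deacetylase complex 9 fell with etoposide and 7 with tozasertib, RBBP7 by 0.93 and 1.02 on the log2 scale.

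DNMT1, which copies DNA methylation after replication, and UHRF1, which guides it, had log2 fold changes of -0.97 ± 0.07 and -1.43 ± 0.05 with etoposide and -1.14 ± 0.08 and -1.90 ± 0.05 with tozasertib. MKI67, given above, fell in the same samples, and how far the values of these genes follow the share of dividing cells was not tested. Between the drugs CBX1, CBX5, UHRF1 and KDM4B were lower with tozasertib and 0 of the 40 were higher.

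**Figure D5:**
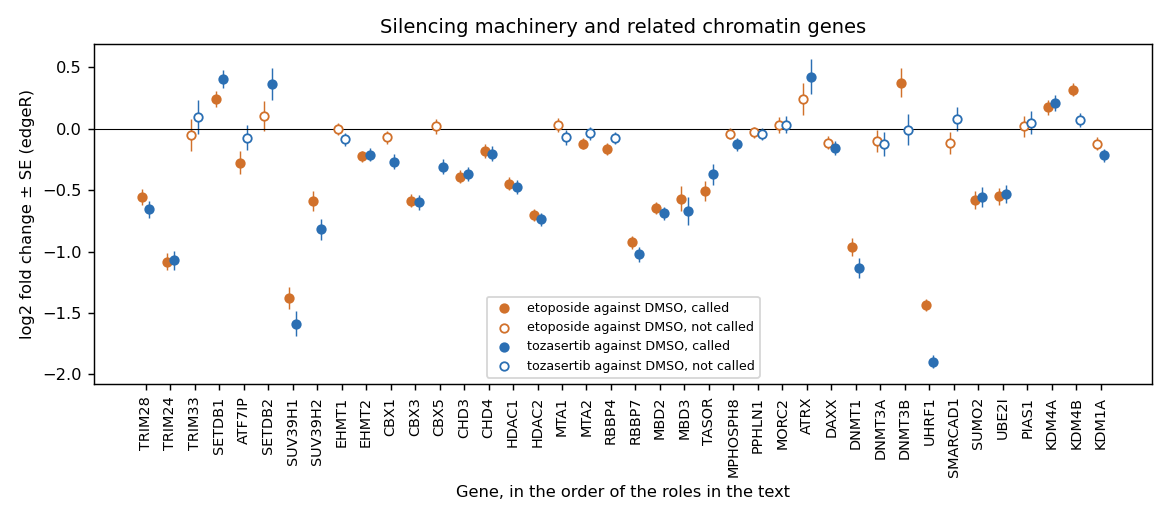
Log2 fold change ± SE of the 40 chromatin genes for etoposide (orange) and tozasertib (blue) against DMSO, with filled points for called genes and open points for genes not called. UHRF1, SUV39H1, DNMT1 and TRIM24 lie lowest, and SETDB1 lies above 0 with both drugs.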

How the data were processed

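Poly(A)-selected, strand-specific libraries of 11 samples were made by the authors and sequenced as single reads of 72 bases. Trimming with cutadapt 4.7 and quantification with Salmon 1.9.0 on GRCh38, along with DESeq2 1.40.2 under R 4.4.2, are named in the submitters' processing notes. The study's methods name another aligner, while the deposited columns are those of Salmon, whose strand and library options the sources used here do not give. Per the file headers, the deposited tables hold estimated counts of reads per transcript, not normalized, made by the authors with Salmon. The deposited TPM values were scaled by the authors' tool for effective length and depth.

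Transcripts were joined to genes with GENCODE release 44. Of 251645 transcripts 470 matched without their version and 437 had no match (0.136% to 0.163% of reads). Estimated counts were summed per gene and rounded. KRAB and C2H2 patterns were searched in translated annotated coding sequences.

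The 17039 genes kept by filterByExpr were tested two-sided by edgeR 4.0.16 (quasi-likelihood test, R 4.3.3), with TMM scaling, 1 mean per group over all samples and Benjamini-Hochberg adjustment, called at 0.05. CPM is TMM-scaled. Fold changes are edgeR's, on the log2 scale. The code was tested on simulated data. Alternatives were DESeq2 1.42.0, other scalings, no filter, length-scaled counts, a replicate block, the compared groups alone, and samples left out. Promoters were compared by pairwise alignment (Biopython 1.88).

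The members and lists were chosen with earlier results of these data known. Members named were, for each drug against DMSO, the 10 largest rises and 10 largest falls among called genes with no overlap and at least 1 CPM in a group, 5 and 5 between the drugs, the 5 highest by CPM, and 8 fixed by function. ZNF880, ZNF540, ZNF585A, ZNF264 and the genes without a read were named outside this rule, after their values were seen. Partners named were TRIM28, SETDB1, genes changed by at least 2-fold, and, also after their values were seen, KDM4A, DNMT3B, RBBP4 and the 4 called between the drugs.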

Additional observations from a re-analysis of the deposited data

Results flagged for a closer look

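In 86 groups of 4 samples (among them the named members under DMSO and under etoposide), 2 samples stood far from the rest of their group, where chance alone would mark about 1 group in 20. The lowest ZNF404 value under etoposide, 5.43 CPM in replicate 3, lay below 8.99, 9.37 and 9.62 CPM in the other samples, with a gap of 0.850 of the range. It was still above the highest DMSO sample, 4.88 CPM. The lowest ZNF93 value under DMSO, 3.26 CPM in replicate 2, lay below 3.52, 3.53 and 3.54 CPM, a gap of 0.905 of a narrow range, and above every treated sample.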

How the results depend on the processing

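No called value of a named member changed direction under the alternatives run. Among all called members and related chromatin genes, those that turned did so with length-scaled counts: ZNF585A from 0.50 to -0.42 with etoposide and from 0.58 to -0.32 with tozasertib, ZNF264 from 0.18 to -0.46 with tozasertib, and RBBP4 from -0.17 to 0.18 with etoposide. The counts of members called with either drug against DMSO stayed within 1.5 times the reported counts under every alternative: when single samples were left out they ran from 80 to 90 higher and 22 to 28 lower with etoposide, and from 103 to 123 higher and 15 to 21 lower with tozasertib. Scaling by library size alone moved the median of all genes from 0.02 to 0.11 for tozasertib against DMSO, and the members' median to 0.46, and gave summed levels of 2736 CPM for DMSO and 3579 CPM for tozasertib. With single samples left out the DMSO sum ran from 2799 to 2861 CPM, the latter without DMSO replicate 1. For tozasertib against etoposide, the higher members numbered 3 with length-scaled counts, 34 with the groups fitted alone and 36 without DMSO replicates 1 and 4, and 5 to 31 with single samples left out. The lower members numbered 2 with length-scaled counts, 2 with DESeq2, 3 without DMSO replicates 1 and 4, and 0 to 2 with single samples left out. The cause was not tested. Of the 91 and 120 members called higher against DMSO, 72 and 92 kept the call with length-scaled counts, and so did 18 of the 27 and 15 of the 20 called lower. Same-numbered samples correlated at -0.097 to 0.23 in their deviations from the group means, so the numbers were not taken as pairs. With the replicate number as a block, 91 members were called higher and 25 lower with etoposide, 120 and 19 with tozasertib, and 15 and 1 between the drugs, and ZNF146 was called higher with tozasertib (0.14), the one call of a named member that the block changed. Members near 0 CPM, such as ZNF610 under DMSO, have fold changes limited by their few reads.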
